A study of Mus musculus with 2 samples.

Results

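Stem-labelled endothelial cells were the droplets that the deposited cell table gave the endothelial type qualified as "Stem", 1 of 4 endothelial labels beside capillary, artery and vein. There were 288 such cells among the 6953 annotated barcodes of both libraries, 150 at day 2 and 138 at day 7, and 287 of them (150 and 137) were among the 6429 cells that passed the limits on depth and mitochondrial transcripts. The label was set by clustering on expression, in batch-corrected dimensions of variable genes after these libraries had been merged with many others, and by known marker genes, so differences between stem-labelled and capillary cells are a description of the label and were not tested. The 2 libraries were droplet single-cell RNA sequencing of whole tibialis anterior muscle of C57BL/6J mice, with no sorting named, at 2 days and at 7 days after notexin, a toxin from snake venom that destroys muscle fibres, had been injected. Each time point was 1 library from 1 mouse, so the day of injury, the mouse and the library cannot be told apart, no p-value is given for any difference between days, and the intervals, all at 95%, account for counting error alone.

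The endothelium is the single layer of cells that lines every blood vessel, and in skeletal muscle most of it forms capillaries that run along the fibres and take up fatty acids for them. After injury, endothelial cells can sprout: leading tip cells secrete factors such as apelin and angiopoietin 2 and loosen the matrix around them, and the new vessels later return to a resting state. Endothelial cells with progenitor properties have been described in adult vessels and have been marked with surface proteins such as the protein C receptor Procr, Cd200 and Kit.

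The sex given in the labels was female and the age 7 months for both libraries, whereas the deposited cell table listed both as male, aged 4 months at day 2 and 7 months at day 7. The reads went with the table: stem-labelled cells held 128 counts of 4 Y-linked genes at day 2 (162 per 1000000 counts) and 81 at day 7 (174), against 1 and 0 counts of Xist. Both libraries therefore stood against their labelled sex, in the same direction, and age at day 2 was unsettled. The libraries held 4836 and 4889 called barcodes with 41123913 and 32356088 counts. They shared 4 barcodes, and no barcode was stem-labelled in both. Stem-labelled cells were shallow, with a median of 4882.5 counts per cell at day 2 (4476 to 5448) and 3186 at day 7 (3059 to 3366), against 6992 and 5444 in capillary cells, and the deepest stem-labelled cell had 11651 counts at day 2 and 7677 at day 7. Median mitochondrial shares were 6.12% and 5.71%, against 5.39% and 4.99% in capillary cells. With each cell thinned to 2000 counts the labels differed little, with medians of 1109.5 genes per stem-labelled cell at day 2 (1098 to 1119) and 1138 at day 7 (1127 to 1147), against 1126 (1117 to 1133) and 1128 (1118 to 1137) in capillary cells, and before thinning the medians were 2066, 1575, 2606 and 2258. No stem-labelled cell was left out by the thinning at day 2 and 10 were at day 7.

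Stem-labelled cells were 4.68% of the kept cells at day 2 (150 of 3208) and 4.25% at day 7 (137 of 3221), a difference of -0.422 percentage points (-1.46 to 0.610). Without cells with transcripts of other cell types the shares were 3.26% and 3.32%, so that the direction turned. With 1 mouse a day, an interval over cells cannot decide whether the days differ. Among cells with an endothelial label they were 44.6% at day 2 (150 of 336) and 41.1% at day 7 (137 of 333), a difference of -3.50 points (-11.2 to 4.20). Capillary cells were about as many (159 and 149), and arterial (15 and 26) and venous (12 and 21) cells were far fewer.

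The label was set by expression and known marker genes, so the endothelial transcripts of these cells describe the label and do not test it. Pecam1 and Cdh5, the adhesion proteins PECAM-1 and VE-cadherin of endothelial junctions, were at 1280 and 1513 counts per 1000000 (CPM) in stem-labelled cells at day 2 and at 1251 and 1879 CPM at day 7, and they were detected in 96.7% to 98.7% of the cells. Each of the 287 kept cells held transcripts of 3 or more of 16 pan-endothelial genes. The 4 genes given as markers of the label were present but did not set it apart. Kdr, the main receptor for VEGF-A (chr5:75932827-75978458, minus strand, mm10), was at 577 CPM (525 to 633) at day 2 and 1647 CPM (1532 to 1768) at day 7, and the capillary values were 415 and 1398 CPM. Timp4, an inhibitor of matrix metalloproteinases (chr6:115241892-115252205, minus strand), was at 86.2 and 849 CPM in stem-labelled cells and at 37.2 and 673 CPM in capillary cells. At day 2, however, 44 of the 68 Timp4 counts lay in 5 stem-labelled cells, and without the 5 highest cells of each label the values were 30.4 and 22.6 CPM. Lnx1, an E3 ubiquitin ligase (chr5:74592447-74702912, minus strand), was at 83.7 and 77.4 CPM against 69.6 and 68.7 in capillary cells. Sox18, an endothelial transcription factor (chr2:181669836-181671640, minus strand), was at 132 and 542 CPM against 98.7 and 451. The log2 ratios of stem-labelled over capillary were 0.48 (0.29 to 0.66) and 0.24 (0.10 to 0.37) for Kdr and 0.42 (0.03 to 0.81) and 0.27 (0.03 to 0.50) for Sox18, whereas those of Lnx1, 0.27 (-0.22 to 0.75) and 0.17 (-0.46 to 0.79), were within counting error. A gene was tested in a comparison when it had at least 30 counts over both groups, and it was called when it differed by at least 2-fold. Of all tested genes, 0.74% were called higher and 1.41% lower in stem-labelled than in capillary cells at day 2, and 1.15% and 1.92% at day 7. Of the 4 markers only Timp4 at day 2 was called.

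Free RNA in the droplets gives some counts to any cell, so the same markers were counted in monocytes and macrophages, which should lack them. Those cells were labelled by expression too, so their shares give a background level and do not test the label. At 2000 counts per cell, 72.0% of stem-labelled cells held at least 1 count of the 4 markers at day 2 and 99.2% at day 7, against 63.9% and 94.6% of capillary cells and 0.930% and 2.26% of monocytes and macrophages. Median depths before thinning were 11696 and 8546 counts in those myeloid cells. Kdr alone was detected in 62.0% of stem-labelled cells at day 2 (53.7 to 69.8) and in 91.3% at day 7 (85.0 to 95.6). Timp4 was detected in 8.67% at day 2 (4.70 to 14.4) and in 67.7% at day 7 (58.8 to 75.7).

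Genes used elsewhere to mark vascular progenitors were compared between the labels. None of 7 tested genes of the progenitor list was called at day 2 (median log2 ratio of stem-labelled over capillary -0.07, against -0.01 over all genes) and none of 8 at day 7 (0.21, against 0.01), where 2.15% and 3.07% of all tested genes were called, so that a list of this size would hold few calls at the background share. Procr was at 92.6 and 34.4 CPM in stem-labelled cells and at 120 and 31.5 CPM in capillary cells. Kit, the stem cell factor receptor, was at 157 and 36.6 CPM against 173 and 23.7, and Cd200 was at 136 and 585 CPM against 111 and 480. Bst1 had 0 and 1 counts, and Prom1 had 8 and 21, so neither could be compared at day 2. The name of the label is used here only as the table gives it. In their summed profiles, stem-labelled cells were most like capillary cells (Pearson r across 3253 genes at day 2 and 3261 at day 7, each profile thinned to 100000 counts, 0.916 and 0.918), followed by arterial (0.910 and 0.905), smooth muscle-labelled (0.897 and 0.891) and venous cells (0.876 and 0.853). These correlations are across genes that are not independent, and the profiles share a library.

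Transcripts of other cell types were counted against the ambient pool, taken from barcodes with 1 to 100 counts. In stem-labelled cells the fibro-adipogenic list was at 4.38% and 3.60% of its ambient level, the monocyte and macrophage list at 4.04% and 3.38%, the neutrophil list at 3.87% and 8.82%, and the myofibre list at 12.7% and 3.83%. The neutrophil list had 1 count at day 7, and lymphocyte genes had 8 and 0 counts, which at day 2 was 103% of ambient. The myogenic list was at 62.7% and 3.88% of ambient, and the lymphatic list at 71.4% and 149%. The pericyte and smooth muscle list reached 219% and 70.2% of ambient, led by Rgs5, a regulator of G protein signalling that is abundant in pericytes (313 and 320 CPM, in 51 and 39 cells). Tagln of that list had 34 and 2 counts in 9 and 2 cells, at 43.1 and 4.30 CPM, with ambient Tagln at 16.7 and 58.6 CPM. Pdgfrb had 4 and 5 counts, Myh11 3 and 2 and Cspg4 0 and 0. Haemoglobin and the other erythroid genes were at 25.5% and 280% of ambient, with 121 of 159 and 195 of 398 counts in 1 cell each day. At least 3 counts of any of the leukocyte, fibro-adipogenic, pericyte and smooth muscle or myogenic lists were found in 50 of 150 stem-labelled cells (33.3%) and 34 of 137 (24.8%), and in 47.8% and 45.0% of capillary cells.

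Between day 2 and day 7, transcripts of the sprouting factors apelin, placental growth factor and angiopoietin 2, of matrix proteases and of ribosome production fell in the stem-labelled cells, and transcripts of fatty acid uptake, capillary identity and the interferon response rose. Among 5773 genes, 726 were at least 2-fold higher at day 7 (12.6%) and 756 at least 2-fold lower (13.1%), and the median log2 ratio of day 7 over day 2 was -0.03. In capillary cells 875 of 7277 genes were at least 2-fold higher (12%) and 784 lower (10.8%), 22.8% in all. A median-of-ratios scaling moved all log2 ratios of the day comparison by 0.12 and turned the split from 726 higher and 756 lower into 613 and 896, so small differences below are read against that shift. The immediate early and heat shock genes that tissue digestion induces moved with the day as well: all 15 were tested, 8 fell and none rose (median log2 ratio -1.10). Fosb, a component of the AP-1 transcription factor, was at 1306 CPM at day 2 and 232 CPM at day 7, and the chaperone gene Hspa1a at 6846 and 1993 CPM, while ambient Hspa1a was at 992 and 2685 CPM. The part of digestion stress in the other lists was not tested.

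**Figure D1:**
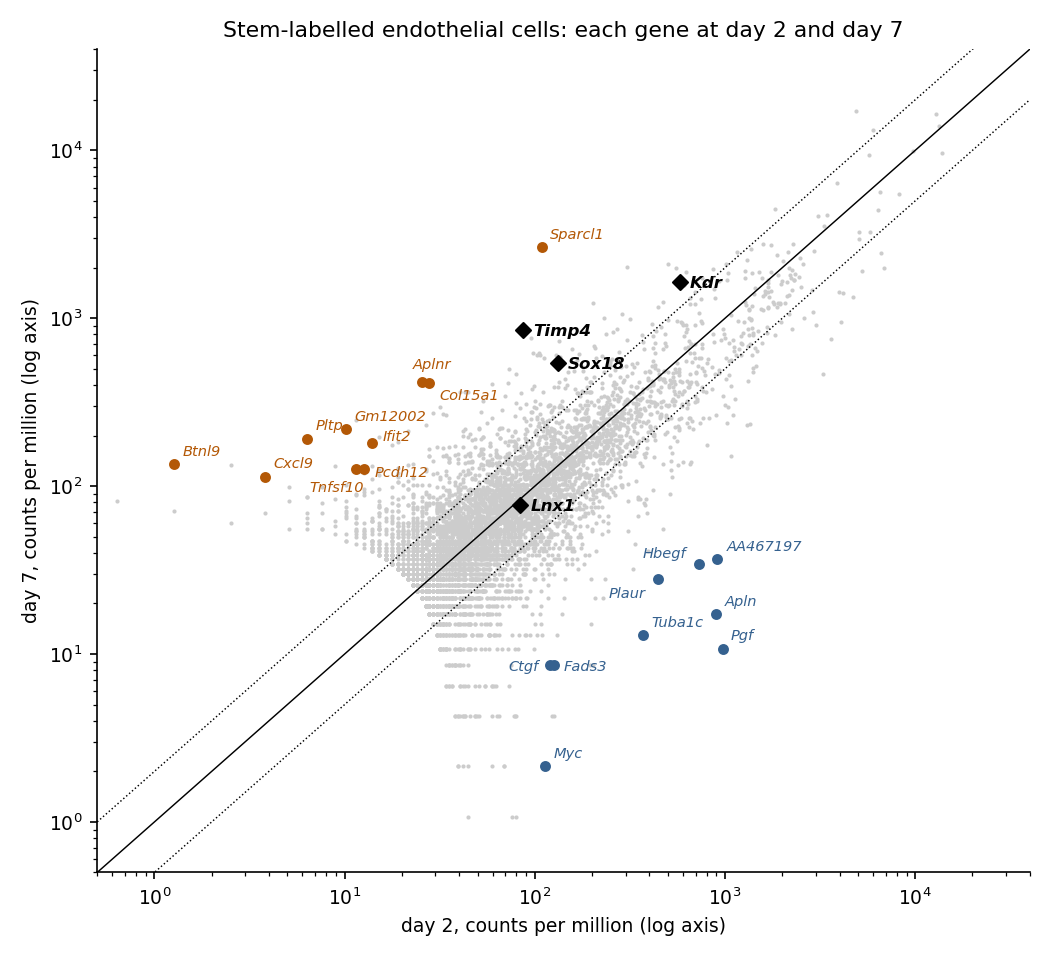
Counts per 1000000 (CPM) of 5773 genes in stem-labelled cells at day 2 (horizontal, log axis) and day 7 (vertical, log axis), with genes at 0 drawn at a height of 0.5 counts, the solid line marking equality and the dotted lines 2-fold. Orange and blue points are the 10 genes chosen as highest and 9 of those chosen as lowest at day 7, and black diamonds the 4 given markers; Sparcl1 stands at 109 and 2645 CPM and Pgf at 971 and 10.8 CPM.

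The 10 genes that led the rise were chosen by size among genes with at least 50 counts in at least 20% of the day 7 cells and a level above ambient. Sparcl1, a matricellular glycoprotein (chr5:104079111-104113733, minus strand), went from 86 counts in 33 of 150 cells to 1230 counts in 134 of 137 cells, a log2 ratio of 4.60 (4.28 to 4.93). Aplnr, the receptor of apelin (chr2:85136225-85139923, plus strand), went from 20 counts in 8 cells to 194 in 77 (4.04, 3.37 to 4.78). The others were detected in 0.667% to 12.0% of cells at day 2 and in 21.2% to 52.6% at day 7. Btnl9, a butyrophilin-like gene of capillaries, went from 1 count to 63, a ratio with a wide counting interval on the log2 scale (6.74, 4.21 to 12.06). Pltp, the phospholipid transfer protein, was at 6.34 and 191 CPM, Cxcl9, an interferon-induced chemokine that draws T cells, at 3.80 and 114, and Col15a1, a collagen of basement membranes, at 27.9 and 411. Gm12002, a gene with no role given here, was at 10.1 and 219 CPM, Ifit2, an interferon-induced antiviral gene, at 14.0 and 181, Tnfsf10, the death ligand TRAIL, at 11.4 and 127, and the endothelial protocadherin Pcdh12 at 12.7 and 127. Capillary cells had log2 ratios of 2.51 to 4.63 for the same 10 genes.

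Of the 10 genes chosen for the largest falls, 9 are described. Pgf, placental growth factor, a ligand of the VEGF receptor Flt1 (chr12:85166635-85177790, minus strand), went from 766 counts in 88 of 150 cells to 5 counts in 1 of 137 cells, a log2 ratio of -6.50 (-8.12 to -5.27). Apln, the peptide apelin (chrX:48025146-48034853, minus strand), went from 710 counts in 88 cells to 8 counts in 4 (-5.71, -6.93 to -4.72). Hbegf, an EGF receptor ligand, was at 731 and 34.4 CPM, and Ctgf, a matricellular growth factor, at 120 and 8.60. Each of these 4 genes was found in at most 9 of the 137 cells at day 7. Plaur, the urokinase receptor, was at 446 and 28 CPM. Myc, a transcription factor that drives growth, had 89 counts and 1 count, so that its log2 ratio of -5.71 had an interval of -11.03 to -3.20. Tuba1c, an alpha-tubulin, was at 369 and 12.9 CPM, AA467197 at 902 and 36.6, and the desaturase gene Fads3 at 126 and 8.60. The capillary log2 ratios of these 9 genes were -2.18 to -6.86.

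Genes of capillary identity and fatty acid uptake rose together in the stem-labelled cells. Of 11 capillary genes tested, 9 rose and none fell (median 1.89), and of 10 fatty acid genes 7 rose and 1 fell (median 1.85), and the lists share 5 genes. Over all tested genes 12.6% rose and 13.1% fell in stem-labelled cells, and 12% and 10.8% in capillary cells. In capillary cells 10 of 11 and 7 of 10 rose (medians 2.27 and 2.34), and the difference between the labels was not tested. Fabp4, an intracellular fatty acid carrier, was at 4881 CPM at day 2 (4728 to 5038) and 17192 CPM at day 7 (16817 to 17573). Cd36, the fatty acid translocase, was at 307 and 2019 CPM, and Lpl, the lipase that frees fatty acids from lipoproteins, at 105 and 617. Gpihbp1, which holds that lipase on the capillary wall, was at 864 and 1972 CPM, and Tcf15, a transcription factor that with Meox2 drives fatty acid uptake in muscle capillaries, at 288 and 1064. Angptl4, an inhibitor of the lipase, went the other way, from 81.2 to 10.8 CPM (log2 ratio -2.92, -4.59 to -1.62). Meox2 (171 and 280 CPM) and Pparg (40.6 and 47.3 CPM) stayed under 2-fold. In cells thinned to 2000 counts, the capillary list gave a median of 14.5 counts per stem-labelled cell at day 2 (range 0 to 97) and 52 at day 7 (4 to 136), so that the 2 days overlapped in single cells. Monocytes and macrophages had medians of 1 and 0.

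**Figure D2:**
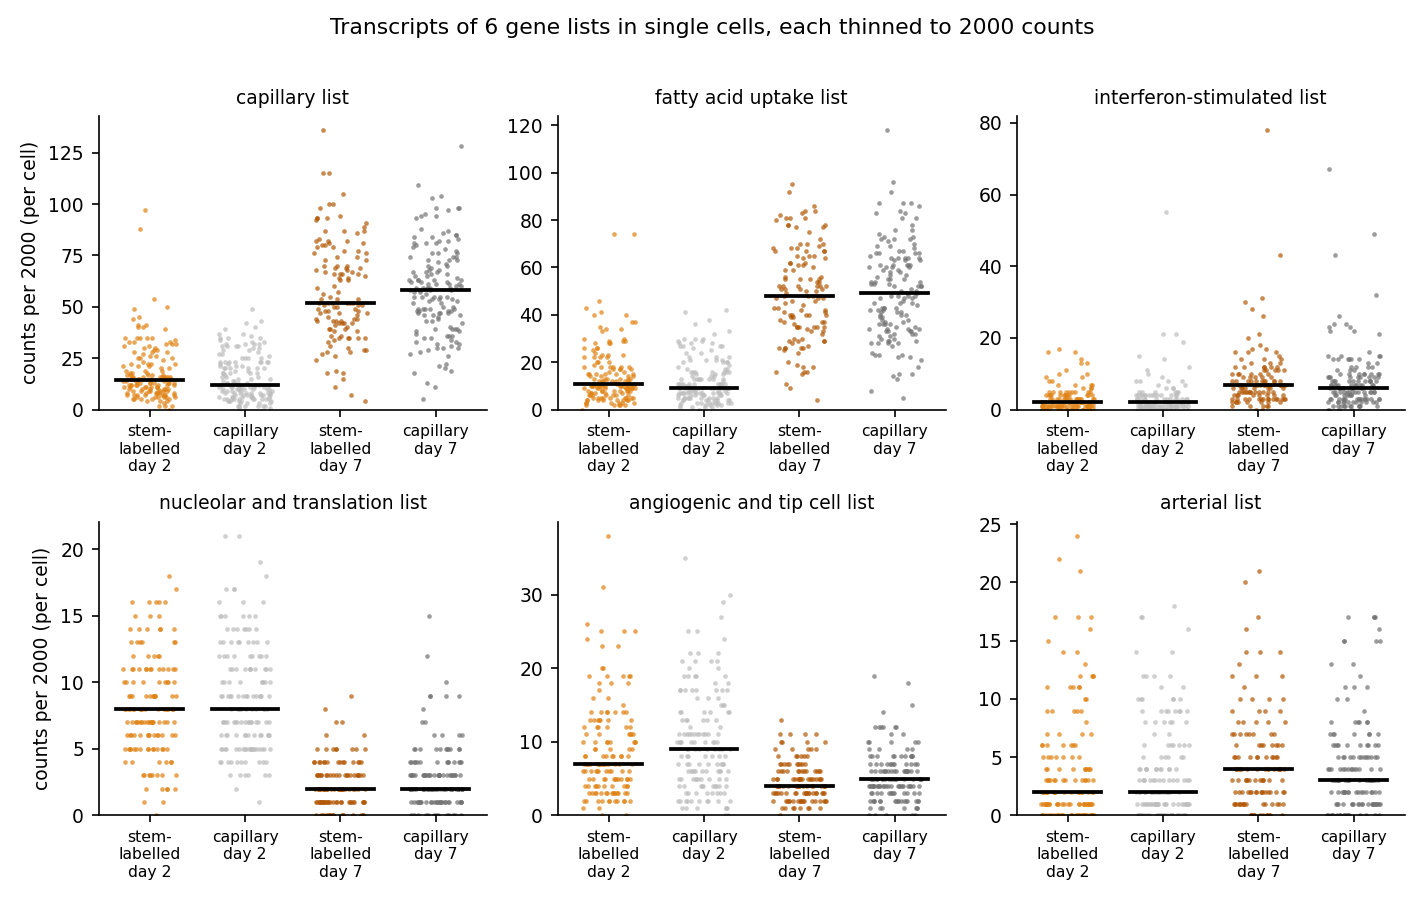
Counts of 6 gene lists in single cells after thinning every cell to 2000 counts, by label and day; each point is a cell and each black bar the median. Stem-labelled and capillary cells of a day overlap widely in all 6 panels, while the capillary list moves from a median of 14.5 to 52 and the nucleolar list from 8 to 2 in stem-labelled cells between the days.

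The angiogenic list split by gene. Of 11 tested, 3 fell (Apln, Pgf and Angpt2), none rose, and the median was 0.09. Angpt2, the destabilizing ligand of the receptor Tek, was at 335 CPM at day 2 and 45.2 CPM at day 7 (log2 ratio -2.89, -3.61 to -2.25). Tek and its partner Tie1 rose, from 91.3 to 213 CPM and from 150 to 479 CPM. The ligands Apln and Angpt2 thus fell while the receptors Aplnr, Tek and Tie1 rose, in stem-labelled and in capillary cells. The stabilizing ligand Angpt1 had 0 counts on both days, which allows up to 3 counts, or 3.80 CPM at day 2 and 6.45 CPM at day 7. Among VEGF receptors, Kdr, Nrp1 (624 and 1875 CPM) and Nrp2 (133 and 297 CPM) rose, Flt1 (1035 and 1858 CPM) and Flt4 (117 and 83.9 CPM) stayed under 2-fold, and Vegfa itself, at 31.7 and 10.8 CPM, was below its ambient level on both days. Dll4, the Notch ligand of tip cells, was at 330 and 183 CPM and stayed under 2-fold. Of 9 Notch genes tested, only the target Hey1 was called (30.4 and 75.3 CPM), and of 10 BMP and TGF-beta genes Tgfb1 rose (113 and 226 CPM) and Bmp4 fell (43.1 and 17.2 CPM). For both lists these shares are at or below the background of 12.6% higher and 13.1% lower.

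Of 16 pan-endothelial genes, 6 rose (Kdr, Tek, Tie1, Emcn, Sox18 and Ptprb), Cldn5 fell, and the median was 0.56. Cldn5, the claudin of endothelial tight junctions, was at 1663 and 815 CPM (log2 ratio -1.03), while the scaffold Tjp1 (127 and 387 CPM) and the junction protein Jam2 (170 and 615 CPM) rose. Among endothelial transcription factors, Sox18 and Mef2c (120 and 303 CPM) were the members of 10 tested that rose, and Sox17 (288 and 189 CPM) and Erg (155 and 140 CPM) stayed under 2-fold. Arterial genes rose in 5 of 8 (median 1.37): Hey1, Gja4, Stmn2, Fbln5 and Alpl, at most 168 CPM (Stmn2 at day 7). Without the 5 highest cells of each day Gja4 was at 10.1 and 15.1 CPM, under 2-fold, and in capillary cells 3 of 8 rose (median 0.88). Of the progenitor list, Cd200 and the drug exporter Abcb1a (52.0 and 157 CPM) rose, Procr and Kit fell, and the median over 7 was 0.67. The background was 12.6% and 13.1%, and in capillary cells Cd200 also rose and Procr and Kit also fell.

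Matrix remodelling genes fell in 7 of 11 and rose in 2 (median -1.63), where 13.1% of all tested genes fell and 12.6% rose. The risers were Sparcl1 and Timp4. Adamts1, Adamts4 and Adamts9, secreted proteases that cut proteoglycans, were at 1318, 330 and 677 CPM at day 2 and at 424, 32.3 and 219 CPM at day 7. The urokinase gene Plau was at 64.7 and 4.30 CPM, and Mmp14, a membrane-bound collagenase, at 128 and 60.2. The structural basement membrane genes held steadier: Col4a1 (2283 and 2769 CPM) and Col4a2 (1555 and 1737 CPM) stayed under 2-fold, and of 9 tested only Lamb1 and Nid2 rose. Sparc, an abundant matrix glycoprotein, was at 3077 and 4066 CPM.

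Every one of the 9 nucleolar and translation genes fell in stem-labelled cells, as they did in capillary cells (medians -1.77 and -1.68). Over all tested genes 13.1% fell and 12.6% rose in stem-labelled cells, and 10.8% fell in capillary cells. Ncl, nucleolin, was at 979 CPM at day 2 (911 to 1051) and 344 CPM at day 7 (293 to 402), Eif4a1, a translation initiation helicase, at 1133 and 331, and Fbl, the fibrillarin of ribosomal RNA methylation, at 181 and 34.4. The share of all counts from ribosomal protein genes was 11.5% at day 2 and 7.99% at day 7. Glycolysis and hypoxia genes fell in 5 of 10 and rose in 1 (median -0.91), with Gapdh at 563 and 133 CPM and Slc2a1, the glucose transporter GLUT1, at 63.4 and 19.4. Most cell cycle genes had too few counts to compare in these shallow cells: the mitotic gene Mki67 had 0 and 1 counts and Top2a 1 and 5, and of the 3 cell cycle genes that could be tested only Pcna was called, at 159 and 43.0 CPM.

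The calls in several other lists are read against the 12.6% of all tested genes that rose and the 13.1% that fell between the days. Of 6 shear stress genes, Klf4 fell (1404 and 477 CPM) and Klf2, its partner in the response to blood flow, stayed under 2-fold (993 and 806 CPM; median of the list -0.24). Of 8 genes of endoplasmic reticulum stress, the chaperone Hspa5 (1036 and 297 CPM) and the transcription factor Atf4 (1098 and 264 CPM) fell, with a median of -0.39. Of 10 respiratory chain genes only Cycs, cytochrome c, fell (203 and 68.8 CPM; median -0.34). With 1 or 2 calls a list, these shares are near that background or rest on too few genes to be told from it. Of 3 venous genes tested, Aplnr and the ephrin receptor Ephb4 (71.0 and 148 CPM) rose. The medians were 0.31 over 7 junction genes, -0.32 over 9 Notch genes, -0.21 over 10 BMP and TGF-beta genes, 0.77 over 10 SOX and ETS family genes, 0.50 over 9 basement membrane genes, 1.22 over 5 angiopoietin and apelin genes, of which 3 rose and 2 fell, and -0.27 over 2 adhesion genes.

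Genes of other cell types were also compared between the days. In stem-labelled cells, 7 of 7 tested myofibre genes rose (median 3.68), as did 4 of 4 fibro-adipogenic genes (3.07) and 3 of 3 erythroid genes (2.02). Of all tested genes 12.6% rose. The erythroid counts lay almost wholly in 5 cells of each day, without which the 4 haemoglobin genes were at 10.1 CPM at day 2 and 4.30 CPM at day 7. The myofibre and fibro-adipogenic genes stood far below the ambient pool on both days. Tagln, 1 of 2 pericyte and smooth muscle genes tested, fell, as did Cd14, 1 of 2 monocyte and macrophage genes (median -0.70). Of the lymphatic list only the receptor Flt4 was tested and it was not called, with Prox1, Lyve1, Ccl21a and Mmrn1 at 0 counts on both days. The neutrophil, lymphocyte, myogenic, tenocyte and neural lists had no gene with enough counts to test, and the myogenic list had 17 and 13 counts, the tenocyte list 4 and 3 and the neural list 5 and 3.

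**Figure D3:**
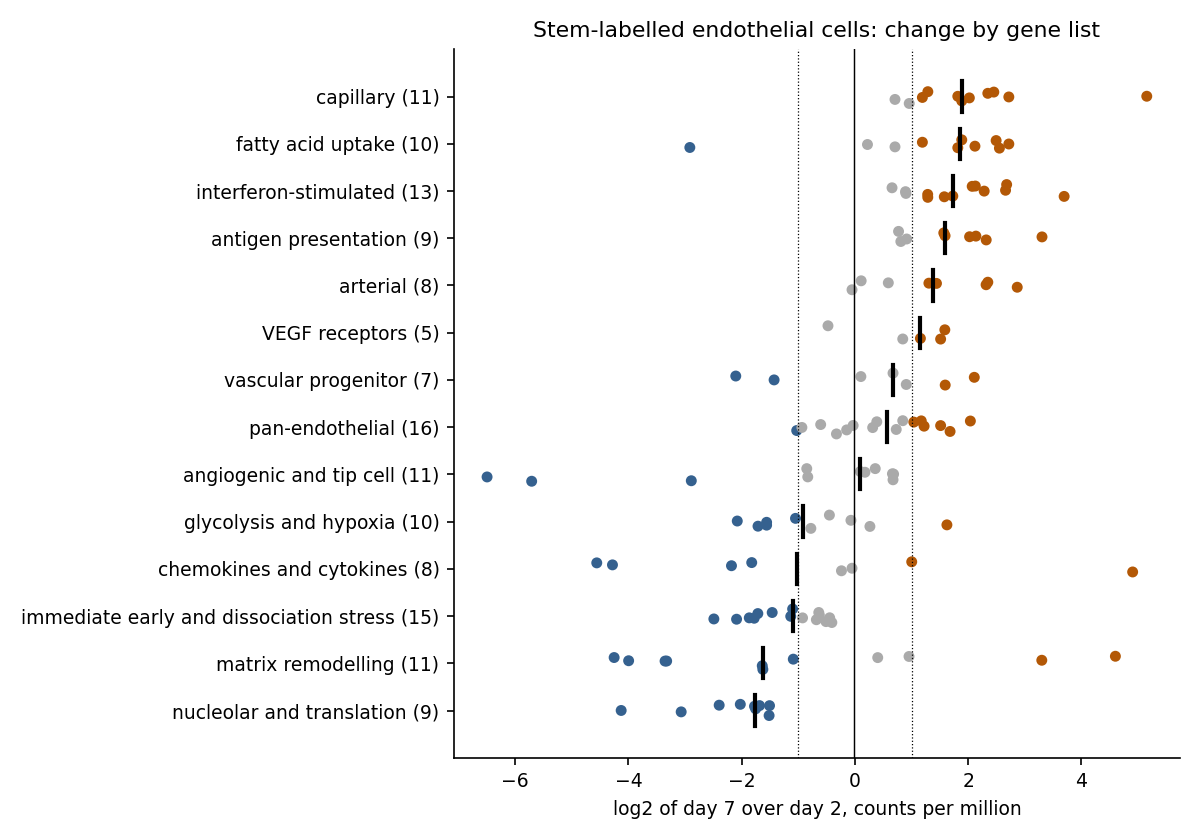
Log2 ratio of day 7 over day 2 in stem-labelled cells for the tested genes of 14 lists, with the number tested in brackets. Each point is a gene, orange at 2-fold higher or more and blue at 2-fold lower or more (dotted lines), the black bar is the list median, and the solid vertical line is the median of -0.03 over all 5773 genes; the nucleolar list lies wholly to the left and the capillary list wholly to the right.

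Of 8 chemokine and cytokine genes tested between the days in stem-labelled cells, 4 fell (Ccl2, Cxcl1, Cxcl2 and Il6) and 2 rose (Cxcl9 and Cxcl10, the latter in 5 and 7 cells), where 13.1% of all genes fell and 12.6% rose. Cxcl1 was at 156 and 34.4 CPM and Cxcl2 at 203 and 8.60, and Ccl2, which draws monocytes, at 126 and 4.30. The levels of these 3 genes at day 2 were below ambient, where Cxcl1, Cxcl2 and Ccl2 stood at 606, 1468 and 1125 CPM, and ambient levels fell too, to 187, 189 and 100.3 CPM. The part of free RNA in these counts was not tested. Cxcl12, the ligand of Cxcr4, was at 1683 and 1623 CPM. Of the adhesion molecules that hold leukocytes on the vessel wall, Icam1 fell (174 and 51.6 CPM), Icam2 rose (162 and 376 CPM), and the selectin Sele and the venular receptor Ackr1 had 0 counts on both days.

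Interferon-stimulated genes rose in 10 of 13 and fell in none (median 1.73), and in capillary cells also in 10 of 13 (median 1.48). The shares of all tested genes that rose were 12.6% in stem-labelled and 12% in capillary cells. Iigp1, a GTPase that acts on intracellular parasites, was at 97.7 CPM at day 2 (77.1 to 122) and 617 CPM at day 7 (548 to 693). Isg15, a ubiquitin-like modifier, was at 212 and 516 CPM, Rsad2, the antiviral enzyme viperin, at 85.0 and 357, and Ifit1, which binds viral RNA, at 58.3 and 174. Each of these was above its ambient level in its own library. The signal was not equal over cells: at 2000 counts the list gave a median of 2 counts per stem-labelled cell at day 2 (0 to 17) and 7 at day 7, with a highest cell of 78 on day 7. Among 9 antigen presentation genes 6 rose and none fell (median 1.59). The immunoproteasome genes Psmb8 (160 and 482 CPM) and Psmb9 (21.6 and 213 CPM) and the peptide transporter Tap1 (34.2 and 151 CPM) rose and were above their ambient levels of 171, 69.3 and 88.4 CPM at day 7, although Psmb9 was below ambient at day 2 (28.8 CPM). The MHC class II genes H2-Aa (15.2 and 45.2 CPM), H2-Ab1 (12.7 and 51.6 CPM) and Cd74 (21.6 and 108 CPM) also passed 2-fold, but ambient Cd74 was at 624 and 2747 CPM, and their levels are not read as expression.

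Because the interferon genes moved together, the 250 bases before their transcription starts were searched for an element like the interferon-stimulated response element, a site through which interferon raises transcription, here spelled as GAAA, any 2 bases, and GAAA again, on either strand. The promoters of the leading members that hold it are shown from RefSeq on GRCm38.p6, 5′ to 3′ along the gene, in lower case with each match, and overlapping matches as a run, in capitals.
Ifit1 (chr19:34640639-34640888, plus strand): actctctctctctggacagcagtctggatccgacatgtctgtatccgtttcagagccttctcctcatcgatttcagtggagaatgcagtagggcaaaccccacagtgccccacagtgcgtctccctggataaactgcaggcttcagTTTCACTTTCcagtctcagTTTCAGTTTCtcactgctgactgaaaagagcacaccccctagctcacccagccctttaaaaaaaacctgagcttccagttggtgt
Isg15 (chr4:156200819-156201068, minus strand): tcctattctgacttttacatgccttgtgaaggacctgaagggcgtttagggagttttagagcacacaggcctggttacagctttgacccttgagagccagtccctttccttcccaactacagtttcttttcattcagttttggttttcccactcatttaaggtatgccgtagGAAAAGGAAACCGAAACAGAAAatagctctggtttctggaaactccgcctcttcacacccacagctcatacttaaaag
Rsad2 (chr12:26456453-26456702, minus strand): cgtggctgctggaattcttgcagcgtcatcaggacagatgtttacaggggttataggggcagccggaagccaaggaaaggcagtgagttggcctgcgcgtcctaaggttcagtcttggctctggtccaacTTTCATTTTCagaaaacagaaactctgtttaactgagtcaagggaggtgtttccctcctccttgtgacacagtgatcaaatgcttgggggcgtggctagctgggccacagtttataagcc
Gbp2 (chr3:142620413-142620662, plus strand): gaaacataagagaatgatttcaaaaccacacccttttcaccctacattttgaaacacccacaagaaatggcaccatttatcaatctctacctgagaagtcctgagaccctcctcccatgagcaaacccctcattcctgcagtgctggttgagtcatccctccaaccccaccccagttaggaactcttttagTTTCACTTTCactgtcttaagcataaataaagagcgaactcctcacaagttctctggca
Ifit1 held 2 matches, which began 104 and 85 bases before the start, Isg15 held 3 overlapping matches, Rsad2 1 at 120 bases and Gbp2 1 at 59 bases. The letters were found in 6 of the 10 interferon-list genes that had a promoter in the table (the 4 above, Ifit3 and Bst2), in 936 of all 27025 genes (3.46%) and in 148 of 4485 tested genes (3.30%). They were found in 31 of 540 genes that were at least 2-fold higher at day 7 (5.74%) and in 14 of 585 that were at least 2-fold lower (2.39%). These shares describe letters in a window and no binding was measured.

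The same was done for the AP-1 site, spelled TGANTCA and bound by dimers of the Fos and Jun families. Of these, Fosb, Junb and Jund fell between the days, and Fos and Jun were tested and not called. In capillary cells only Fosb of these genes was called. The site was present in 2 of 6 of the genes chosen as lowest that had a promoter in the table, AA467197 and Plaur. Among genes at least 2-fold lower at day 7 it was found in 5.81%, among tested genes in 5.37% and among all genes in 7.82%. Ifit3, Rsad2 and Gbp2 also hold these letters, which are not capitalised in the interferon promoters. The promoter of Plaur, which went from 446 to 28 CPM, holds it 69 bases before the start, in capitals.
Plaur (chr7:24462233-24462482, plus strand): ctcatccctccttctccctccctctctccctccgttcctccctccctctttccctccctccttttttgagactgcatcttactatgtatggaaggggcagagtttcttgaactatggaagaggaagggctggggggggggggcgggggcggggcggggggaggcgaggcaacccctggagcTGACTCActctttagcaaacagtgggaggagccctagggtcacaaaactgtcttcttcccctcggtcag

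Compared with capillary cells of the same library, stem-labelled cells differed in few genes. At day 2, 51 of 6895 tested genes were at least 2-fold higher (0.74%) and 97 lower (1.41%), 2.15% in all, and at day 7, 69 of 5987 were higher (1.15%) and 115 lower (1.92%), 3.07% in all. Most of these rested on low counts, since of genes with at least 100 counts only 13 of 3356 were called at day 2 and 17 of 2397 at day 7. Those at day 2 included the haemoglobin genes Hbb-bs, Hba-a1 and Hba-a2, and all 4 tested erythroid genes were lower (median log2 ratio -3.87). The 4 haemoglobin genes were at 202 against 3050 CPM, and at 10.1 against 15.4 CPM without the 5 highest cells of each label. Those at day 7 included Myl1, Tnnc2, Ckm, Mylpf, Tnni2, Tnnt3 and Acta1 of the myofibre list. A few capillary cells carried most of that list's counts, as described below. The calls were mostly different genes on the 2 days: 2 were higher on both (Col18a1 and Gja4, 3.92% of the day 2 and 2.90% of the day 7 genes) and 2 lower on both (Acta1 and Creld1). None of the 16 pan-endothelial genes and none of the capillary genes (10 tested at day 2, 11 at day 7) was called on either day.

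Some arterial genes were higher under the stem label. At day 2, 1 of 6 tested was called (Gja4) with a median log2 ratio of 0.53, and at day 7, 4 of 8 were called (Gja4, Hey1, Sema3g and Fbln5) with a median of 0.91, against medians of -0.01 and 0.01 over all genes. Of all tested genes 0.74% were called higher at day 2 and 1.15% at day 7. Summed, the 10 genes of the list were at 2119 CPM (2019 to 2223) in stem-labelled and 1907 CPM (1830 to 1985) in capillary cells at day 2, and at 2522 CPM (2380 to 2670) against 1963 CPM (1872 to 2057) at day 7. At 2000 counts per cell the median was 2 counts of the list under both labels at day 2, and 4 against 3 at day 7. Sema3g, a semaphorin made by arterial endothelium (chr14:31217860-31230352, plus strand), had 71 counts in 32 stem-labelled cells at day 2 and 63 in 31 at day 7, at 90.05 and 135 CPM, against 61.5 and 49.6 CPM in capillary cells. Its log2 ratios were 0.55 (0.06 to 1.04) and 1.45 (0.87 to 2.04). Gja4, the arterial gap junction protein connexin 37 (chr4:127311421-127314039, minus strand), was at 25.4 and 68.8 CPM against 12.1 and 22.5, with log2 ratios of 1.06 (0.02 to 2.13) and 1.61 (0.76 to 2.49). Hey1, a Notch target and arterial transcription factor, was at 75.3 CPM against 33.8 at day 7, and Fbln5, an elastic fibre protein, at 101 against 30.4. Gja5, connexin 40, had 11 and 13 counts in 6 and 9 stem-labelled cells and 1 and 2 counts in capillary cells, under the limit for testing. Efnb2, the arterial ephrin ligand, was at 209 and 226 CPM against 147 and 153, which was under 2-fold on both days. Arterial-labelled cells carried far more, with Sema3g at 616 and 695 CPM and Gja4 at 110 and 425. Nr2f2, a transcription factor of veins, went the other way, at 16.5 and 17.2 CPM against 34.8 and 33.8 in capillary cells (log2 ratios -1.08, -2.10 to -0.16, and -0.97, -2.31 to 0.18).

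These arterial transcripts were detected in a minority of the stem-labelled cells, often in the same ones. At day 7 and 2000 counts per cell, 20 of 127 stem-labelled cells held Sema3g. Hey1 was found in 10 of these and in 5.61% of the rest, and Fbln5 in 10 of them and in 1.87% of the rest. In capillary cells, 14 of 149 held Sema3g, and Hey1 was found in 7.14% of these and in 7.41% of the rest, Fbln5 in 28.6% and 5.93%. Among 753 monocytes and macrophages thinned to the same depth, Sema3g was detected in 0, which allows a share of up to 0.398%, Hey1 in 0.266% and Fbln5 in 0.398%. Ambient levels were 11.9, 7.85 and 53.6 CPM, so that Fbln5 in capillary cells was below ambient. The stem-labelled cells of day 2 showed the pattern at lower counts, with Hey1 in 3 of 16 cells that held Sema3g and in 2.24% of the rest. Without the 5 cells highest for each gene, the day 7 levels were still 86.0 CPM against 28.2 for Sema3g, 47.3 against 22.5 for Hey1 and 51.6 against 13.5 for Fbln5, whereas Gja4, with 25 of its 32 counts in 5 cells, was at 15.1 against 10.1. At day 2 the values were 52.0 against 38.0 CPM for Sema3g and 10.1 against 3.24 for Gja4.

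**Figure D4:**
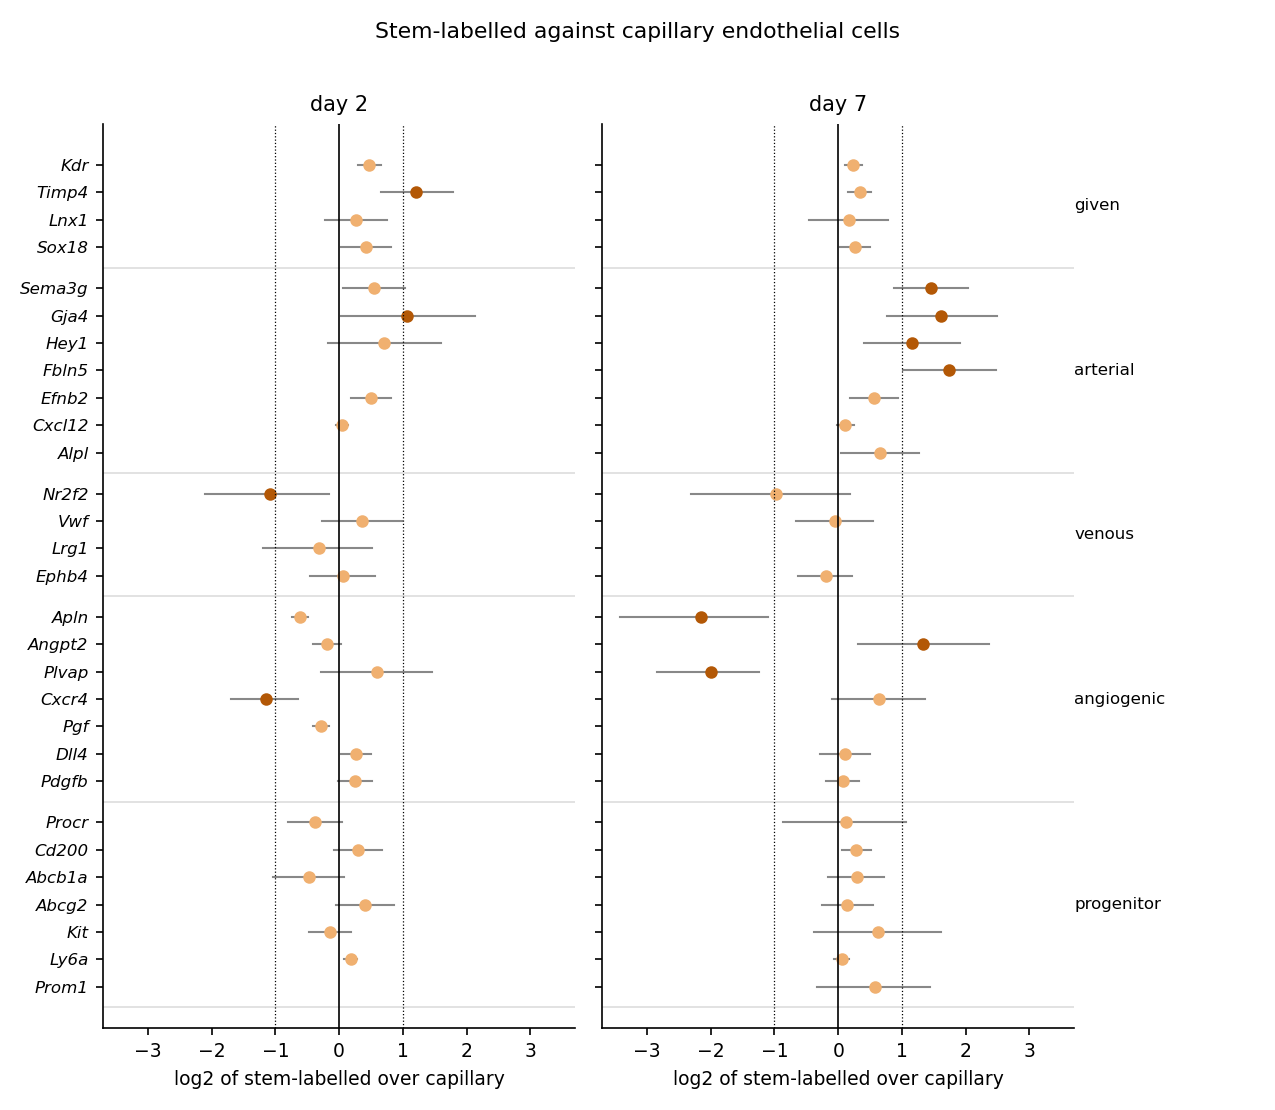
Log2 ratio of CPM in stem-labelled over capillary cells at day 2 (left) and day 7 (right) for the tested genes of 5 lists, with exact 95% counting intervals as bars; dark points are at least 2-fold from equality (dotted lines), and a gene with under 30 counts has no point. Sema3g, Gja4, Hey1 and Fbln5 lie right of the 2-fold line at day 7, Apln and Plvap left of it, and no progenitor gene lies past it on either day.

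Of 11 angiogenic genes tested, 1 was called lower under the stem label at day 2, and of 10 at day 7, 2 were lower and 1 higher (median log2 ratios -0.07 and 0.06). Over all tested genes 0.74% were higher and 1.41% lower at day 2, and 1.15% and 1.92% at day 7. At day 2, Cxcr4, the receptor of Cxcl12, had 41 counts in 24 stem-labelled and 143 in 50 capillary cells (52.0 against 116 CPM, log2 ratio -1.15, -1.69 to -0.64), and Tnc, the matrix protein tenascin C, which is not in the list, had 31 counts in 17 and 179 in 36 cells (-1.88, -2.48 to -1.32). Ambient Cxcr4 was at 148 CPM. Apln was at 900 against 1378 CPM, which was under 2-fold. At day 7 Apln had 8 counts in 4 stem-labelled and 68 in 21 capillary cells (-2.16, -3.42 to -1.10), and Plvap, the diaphragm protein of fenestrated and venous endothelium, had 16 counts in 12 and 122 in 32 cells (-2.0, -2.85 to -1.24). Angpt2 went the other way at day 7, with 21 against 16 counts (1.32, 0.32 to 2.36). Without the 5 cells of each label highest for the gene, Tnc was at 16.5 against 87.4 CPM at day 2. At day 7 Plvap was then at 15.1 against 76.6 CPM and Angpt2 at 25.8 against 9.01. Apln was at 30.4 CPM in capillary cells, but its value of 0 in stem-labelled cells was fixed, since only 4 cells held it.

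Within the day 2 stem-labelled cells, Pgf and Angpt2 were detected in a larger share of the cells that held Apln. At 2000 counts per cell, 72 of 150 cells held Apln. Pgf was found in 51 of these (70.8%) and in 32.1% of the rest, and Angpt2 in 45.8% and 19.2%. In capillary cells the corresponding shares for Pgf were 83.1% and 33.3%. In monocytes and macrophages of day 2, Apln was detected in 0.620%, Pgf in 0.930% and Angpt2 in 0.388%.

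Of 9 chemokine and cytokine genes tested against capillary cells at day 2, Cxcl2 and Cx3cl1 were called higher and Ccl2 lower, and of 5 at day 7 none was called. The shares of all tested genes were 0.74% higher and 1.41% lower at day 2, and 1.15% and 1.92% at day 7. At day 2, Cxcl2 was at 203 CPM in stem-labelled and 95.5 in capillary cells (log2 ratio 1.09, 0.74 to 1.44), and Icam1 at 174 against 102, while Ccl2 was lower (126 against 311 CPM), and Cxcl2 and Ccl2 were below ambient. Cx3cl1, the membrane-bound chemokine fractalkine, was at 35.5 against 17.0 CPM (1.06, 0.20 to 1.95). At day 7 Cxcl2 had 4 counts and Icam1 stood at 51.6 against 87.9 CPM. Socs3, a feedback inhibitor of cytokine signalling, was at 517 against 449 CPM at day 2 and at 142 against 341 at day 7 (log2 ratio -1.27, -1.67 to -0.88), and it was the only one of 15 immediate early genes to be called at day 7; none was at day 2. Hbegf was at 34.4 against 92.4 CPM and Ptger4, a prostaglandin E2 receptor, at 21.5 against 57.5 at day 7. Of the nucleolar list, 3 of 8 were lower at day 7 (Fbl, Nhp2 and Mybbp1a, median -0.37) and none of 9 at day 2. Tal1, a transcription factor of blood and endothelial cells, was higher at day 7 (60.2 against 15.8 CPM, 1.93, 0.96 to 2.97).

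Genes with at least 50 counts in the higher label, found in at least 20% of its cells and above ambient there, were also ranked, which leaves out rarer genes called on both days such as Gja4. Those that leaned the same way on both days were ordered by the smaller of their log2 ratios. Among the 10 highest, Synm, an intermediate filament protein, was at 78.6 and 138 CPM in stem-labelled and 44.5 and 90.1 CPM in capillary cells, and Ptprg, a receptor tyrosine phosphatase, at 179 and 366 against 114 and 260. The others were Sema3g, Efnb2, Apobec3, Glg1, Tmbim1, Zdhhc20, Trim30a and Pcdh19, with log2 ratios of 0.41 to 0.61 apart from Sema3g at day 7. Among the 10 lowest were Grk5, a G protein-coupled receptor kinase (55.8 and 40.9 against 87.4 and 65.3 CPM), Pgls, an enzyme of the pentose phosphate pathway (46.9 and 83.9 against 83.3 and 123 CPM), and Ntan1, Mrpl14, Cops7a, Stub1, Pop5, Rbm17, Taf11 and Syngr2. Of these 20 genes, only Sema3g and Taf11 passed 2-fold on either day, both at day 7.

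Ranked by day under the same limits, which many of the called genes do not meet, the genes most above capillary cells at day 2 were Rnf115, Synm, Arrdc4, 9930111J21Rik2, Trio, Icam1, Socs2, Slc43a3, Ints6 and Rai14, with log2 ratios of 0.73 to 0.86 and none past 2-fold. At day 7 they were Sema3g, Arhgap5, Pnisr, Btnl9, Rbp7, Ednrb, Igfbp3, Stim2, Raph1 and Mecom, of which only Sema3g passed 2-fold. Igfbp3, which binds insulin-like growth factors, was at 544 CPM in stem-labelled and 322 CPM in capillary cells at day 7, and Btnl9 at 135 against 76.6. The most below at day 2 were Tnc, Gnb4, Polr3k, Zmat5, Hmox1, 5730508B09Rik, Nudt21, Asun, Kdelr1 and Fam174a, with log2 ratios of -0.91 to -1.88. The direction turned for 2 of them, Hmox1 (log2 ratio 0.55 without the 5 highest cells) and 5730508B09Rik (0.27 after thinning). At day 7 the most below were Plvap, Il3ra, Hbegf, Ptger4, Socs3, Med8, Taf11, Eif4ebp1, Mybbp1a and Fbl, at -1.09 to -2.0.

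Muscle fibre transcripts also differed between the labels, through a few capillary cells. At day 7 all 8 tested myofibre genes were lower in stem-labelled cells (median -1.83), Acta1, skeletal alpha-actin, at 247 against 774 CPM, with ambient Acta1 at 6239 CPM. The highest stem-labelled cell held 67 counts of the 9 genes and the highest capillary cell 1308. The sum of the 9 genes was 980 CPM in stem-labelled and 3636 CPM in capillary cells, and without the 5 highest cells of each label it was 722 against 534 CPM, so that the direction turned. Whether these counts bear on the other differences at day 7 was not tested.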

How the data were processed

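Whole tibialis anterior muscle was digested with collagenase D and dispase II, filtered, cleared of erythrocytes and sequenced as 2 droplet libraries (10x, 3′ ends), 1 for each time point. The authors aligned reads to mm10 and deposited raw UMI counts, as whole numbers, for 27998 genes in each barcode ( Cell Ranger 3.1.0 in the submitters' processing notes, 3.0.1 in the matrix header). The authors also deposited estimated counts from which ambient RNA had been subtracted with SoupX, which removed 2.63% of the counts of stem-labelled cells at day 2 and 2.12% at day 7, and a cell table. In the authors' work, doublets were marked with DoubletFinder, many libraries were integrated with Harmony in Seurat (3.1.5 in the notes), and clusters were named from known marker genes. No doublet caller was run here. The sources give no strand setting for counting, and counts fall near the 3′ end of genes, so levels are compared within a gene.

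Annotated barcodes were kept with at least 750 genes and 1000 transcripts in the SoupX values and at most 30% mitochondrial transcripts, which removed 329 barcodes at day 2 and 195 at day 7, and 43 and 31 annotated barcodes carried no cell type. Uncorrected counts were summed per label and divided by the label's total. Counts per 1000000 (CPM) have exact Poisson intervals, ratios exact conditional binomial intervals, shares Clopper-Pearson intervals and differences of shares square-and-add intervals, all at 95% and for counting error only. Cells are not replicates and there was 1 library for each time point, so no test was made. Genes with 30 or more counts over a pair of groups were called at 2-fold, with counts under 3 taken as 3. A count of 0 allows up to 3 counts. Ambient levels came from 704377 barcodes at day 2 and 557014 at day 7 with 1 to 100 counts each. For comparisons at equal depth, each cell was thinned to 2000 counts. Named genes were the members of the lists and, for each comparison, the 10 highest and the 10 lowest by log2 ratio among genes with at least 50 counts in the higher group, found in at least 20% of its cells and above ambient there. Mitochondrial, ribosomal protein, haemoglobin, sex-linked and myofibre genes were left out of that ranking, and the values of some genes are not reported here.

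The members and the 16 cell type and 22 gene lists were chosen with earlier results of these data known. Coordinates come from GENCODE vM21 on GRCm38, in which 27722 of the 27998 identifiers matched, and 321 of 322 list genes were found by symbol. Calculations used Python 3.11.15, NumPy 2.4.6, SciPy 1.17.1 and pandas 2.3.3, and the code for intervals and calls was tested on simulated data. Alternatives were other limits on cells, minimum counts, scalings, thinning depths and floors, SoupX values, means over cells, and leaving out cells with transcripts of other cell types. Leaving out the 5 cells highest for a gene, and not using Rgs5, were added after seeing the data.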

Additional observations from a re-analysis of the deposited data

Results flagged for a closer look

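Haemoglobin genes moved in opposite directions in the stem-labelled and capillary cells. The log2 ratio of day 7 over day 2 was 1.78 in stem-labelled and -1.79 in capillary cells for Hba-a1, 2.76 and -1.88 for Hba-a2, and 2.02 and -1.31 for Hbb-bs. The differences were not tested. In each label and on each day, 5 cells held 95% to 99.5% of the haemoglobin counts, and without them the level was 10.1 CPM at day 2 and 4.30 CPM at day 7 in stem-labelled cells and 15.4 and 6.76 CPM in capillary cells.

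Endothelial transcripts were also found in barcodes that the comparisons did not use. Of 680 barcodes at day 2 that met the limits on cells but were outside the cell table, 233 held 3 or more of the 16 pan-endothelial genes (34.3%, 30.7 to 38.0), and at day 7 they were 209 of 477 (43.8%, 39.3 to 48.4). The same was found in 100% of stem-labelled cells and in 3.1% and 3.57% of monocytes and macrophages. How these barcodes would have been labelled is not known.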

How the results depend on the processing

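With 1 library a day, no value carries an error between mice, and depth limits the stem-labelled cells to genes with many counts. No paired analysis was possible because each group was 1 library and the results come from no test. Leaving out cells with transcripts of other cell types took the share of stem-labelled cells to 3.26% and 3.32% of kept cells at day 2 and day 7, and to 51.5% and 48.8% of endothelial cells. The direction between the days thus turned among kept cells and held among endothelial cells. The 1482 genes called between the days became 919 after thinning cells to 2000 counts (705 shared), and 2523, 583 and 2989 with a minimum of 10, 100 and 1 counts. The 148 genes called against capillary cells at day 2 became 83 (11 shared), 583, 13 and 768, and the 184 at day 7 became 103 (26 shared), 675, 17 and 867. Without cells with transcripts of other cell types, 23 of the day 2 and 44 of the day 7 calls were shared. Most single calls against capillary cells were thus not kept under either alternative. The split into higher and lower moved by over 10 points with a minimum of 1 count (1886 and 1103 between the days, 420 and 348 at day 2, 527 and 340 at day 7). Against capillary cells it also moved after thinning (45 and 38; 49 and 54), with a minimum of 100 counts (2 and 11; 1 and 16), without cells with transcripts of other cell types (55 and 50; 69 and 62; with Rgs5 not used, 54 and 64 at day 2) and, at day 7, with a minimum of 10 counts (335 and 340). The scaling by median of ratios shifted log2 ratios by 0.12 between the days and by 0.00 and 0.03 against capillary cells.

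Thinned to 1000 and 4000 counts, the median genes per cell were 654.5 and 1816 in stem-labelled and 662 and 1837 in capillary cells at day 2, and 655 and 1876, and 660 and 1853.5, at day 7. The share of stem-labelled cells with a count of the 4 markers was then 52.7% and 86.1% at day 2 and 87.6% and 100% at day 7. Cells with transcripts of another cell type were 54.0% at day 2 and 54.7% at day 7 from 2 counts of a list, 17.3% and 7.30% in SoupX values and 18.7% and 15.3% with Rgs5 not used. Over 97 values of named genes under 9 alternatives, 838 of 873 were the same, 33 moved and 2 reversed. The reversed values were log2 ratios against capillary cells at day 2: 0.55 for Hmox1 without the 5 highest cells and 0.27 for 5730508B09Rik after thinning. The cause was not tested.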
